A study of Danio rerio with 12 samples.

Results

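The change with age under exposure was described from 6 of the 12 libraries of this zebrafish study, 3 from larvae at 10 days post fertilization (dpf) and 3 from larvae at 7 dpf. The labels alone chose them. All 6 came from entire larvae of Danio rerio, AB strain, kept from eggs collected 3 h after fertilization in water with sea salt and tritiated water (HTO), water that carries the radioactive isotope of hydrogen, at 0.4 mGy/h. Their incubator was placed within a glove box. The other 6 libraries, 3 at each age, came from uncontaminated larvae of the same strain whose incubator was outside it in the same room, and the effects of exposure and of the incubator cannot be told apart. Nor can age and length of exposure be told apart within the exposed larvae, since the older larvae were also exposed for longer. The submitters call the 3 libraries of a group biological replicates. The sources used here do not give what separates them, how many larvae a library holds, or whether the larvae were fed.

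By about these ages a zebrafish larva has largely used up its yolk and depends on its own gut, liver and exocrine pancreas, which secretes digestive enzymes. Muscle, cartilage and retina keep growing, and many organs pass from dividing progenitors to differentiated cells. Tritium emits low-energy beta particles, and tritiated water spreads through all tissues.

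Polyadenylated RNA was sequenced from both ends, and the deposited values are raw read counts per gene. The exposed libraries held 19.4 M to 60.0 M reads on genes (M, 1e+06 reads). Levels are given below as counts per 1e+06 reads on genes (CPM, with TMM-scaled library sizes), and changes as log2 fold changes of 10 against 7 dpf. Markers of the organs of an entire larva had reads in all 6 libraries, among them alas2, the heme synthesis enzyme of red blood cells, at 1.15 to 6.03 CPM, and actc1b, an actin of skeletal muscle, at 6834 to 16810 CPM.

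Replicate 1 at 10 dpf stood apart from the other exposed libraries. In it 798 of 23075 genes lay more than 2-fold below all 5 others, against 14 to 141 genes in any other exposed library. With a minimum of 5 CPM in the higher libraries these were 475 genes, against 0 or 1 gene in the others, and 102 of the 475 belong to the lists of exocrine pancreas, liver and intestine genes. These lists hold 147 of the 23075 tested genes, and most of the 475 lie outside them. In the opposite direction it lay more than 2-fold above the 5 others in 25 genes. Its log2 CPM correlated across genes with those of its group mates at r = 0.979 and 0.972, while the mates correlated with each other at r = 0.992. Its share of reads on genes was 65.5%, the lowest of the 6, where the highest was 68.4%. Its voom weight and its effect on each list are given below.

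Across the genome 5343 of 23075 tested genes, or 23.2%, changed with age in exposed larvae by edgeR's quasi-likelihood test (Benjamini-Hochberg adjusted p under 0.05). Of these, 2490 rose (10.8% of the tested genes) and 2853 fell (12.4%). Changes over 2-fold were fewer and more often downward, with 351 rises and 709 falls. The 3 libraries of one age all lay above or all below the 3 of the other in 9129 genes, or 39.6%, with 10 dpf above in 19.4% and below in 20.2%. The median change over all tested genes was 0.01. Without replicate 1, 4951 genes were called, 21.1% of 23461 tested, of which 2179 rose (9.29%) and 2772 fell (11.8%).

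Genes of cell division fell together. Of 80 tested genes of mitosis and chromosome segregation 71 fell, none rose, and the median change was -1.64 against 0.01 for all genes. NUSAP1, a protein of the mitotic spindle, was at 11.4, 10.9 and 13.3 CPM in the 7 dpf replicates and at 1.997, 1.911 and 1.954 CPM at 10 dpf. The ages did not overlap, and it fell by 2.59 on the log2 scale (SE 0.14, adjusted p = 1.33e-07). mki67, which encodes the proliferation marker Ki-67, was at 46.0, 43.7 and 48.4 CPM at 7 dpf and at 11.0, 11.9 and 11.8 CPM at 10 dpf, a change of -1.99 (SE 0.13, adjusted p = 5.07e-07). The spindle assembly factor TPX2 fell from 13.6, 12.3 and 13.4 to 2.98, 2.41 and 2.85 CPM, a change of -2.27 (SE 0.14, adjusted p = 3.96e-07). All 3 libraries of 10 dpf, replicate 1 included, sat at nearly the same level in these genes.

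DNA replication followed the same direction, with 40 of 62 tested genes lower, 0 higher and a median of -0.74. CCNA2, the S and G2 phase cyclin A2, was at 7.18, 6.95 and 8.08 CPM at 7 dpf and at 1.05, 1.11 and 1.14 CPM at 10 dpf, a change of -2.74 (SE 0.19, adjusted p = 1.06e-06). These low CPM rested on 33, 63 and 43 reads at 10 dpf and 158 to 394 reads at 7 dpf. Thymidine kinase TK1 changed by -2.74, DNA topoisomerase TOP2A by -2.52 and the replicative helicase subunit MCM6 by -1.76. The mean log2 CPM of the mitosis list stood at -1.55, -1.53 and -1.44 relative to its 7 dpf mean in 10 dpf replicates 1, 2 and 3, and that of the replication list at -0.98, -0.88 and -0.77. Without replicate 1 the counts were 68 and 37 lower genes. In RNA from whole larvae, fewer cells of a type and less RNA per cell cannot be told apart, here and in every list below.

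**Figure D1:**
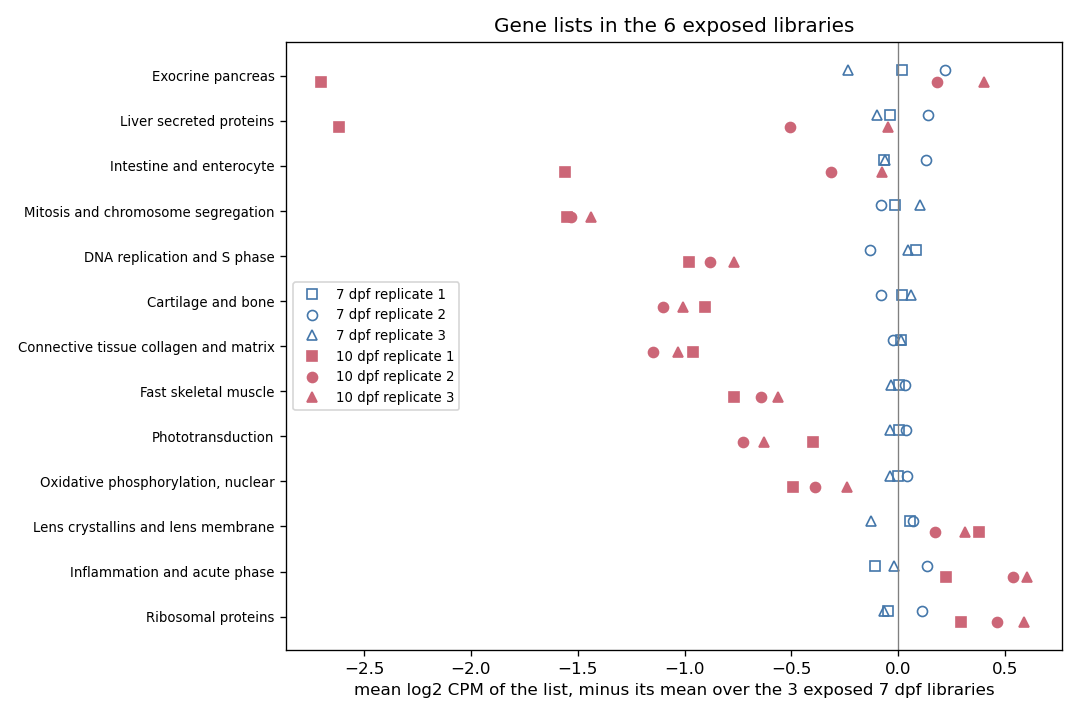
Mean log2 CPM of the genes of 13 lists in each exposed library, minus the mean of the same list over the 3 libraries of 7 dpf; open symbols are 7 dpf and filled symbols 10 dpf, with 1 shape per replicate. Replicate 1 at 10 dpf lies at -2.70, -2.62 and -1.56 in the pancreas, liver and intestine lists, apart from both mates, and near them in the cell division, matrix and fast muscle lists (-0.77 against -0.64 and -0.56 in fast muscle).

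Skeleton and connective tissue genes also fell together. Of 42 tested cartilage and bone genes 26 fell and 0 rose, with a median of -1.14, and of 44 collagen and matrix genes 36 fell and 0 rose, with a median of -0.99. COL10A1, the collagen of hypertrophic cartilage and, in fish, of bone-forming cells, was at 188, 175 and 195 CPM at 7 dpf and at 29.1, 14.3 and 18.1 CPM at 10 dpf. It fell by 3.19 on the log2 scale (SE 0.25, adjusted p = 1.37e-05), and replicate 1 was the highest of the older libraries. POSTN, the matrix protein periostin, fell from 422, 394 and 367 CPM to 120, 91.1 and 104 CPM, a change of -1.91 (SE 0.10, adjusted p = 1.11e-07). COL6A2, a chain of collagen VI, changed by -1.57. hapln1a, a link protein of cartilage matrix, changed by -1.95, the cartilage collagen gene col9a3 by -2.27, and TNMD, the tendon protein tenomodulin, by -1.61. Among the largest falls was also enam, which encodes the enamel protein enamelin, at 10.4, 9.29 and 9.10 CPM against 1.81, 0.566 and 0.951 CPM, with -3.20 (SE 0.35, adjusted p = 8.96e-05). Without replicate 1 the lists held 26 and 34 lower genes.

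Fast muscle showed a smaller and equally one-sided change, with 38 of 52 tested genes lower, 1 higher and a median of -0.62. The myosin light chain MYL11 was at 675, 774 and 707 CPM at 7 dpf and at 200.2, 218 and 224 CPM at 10 dpf, a change of -1.75 (SE 0.09, adjusted p = 1.11e-07). HHATL, whose product is a homolog of an acyltransferase and is best known from striated muscle, had the smallest p of all falls, from 216, 240 and 216 CPM to 46.2, 39.7 and 44.8 CPM, a change of -2.36 (SE 0.09, adjusted p = 2.80e-08). actc1b, one of the most abundant messages, fell from 16370, 16810 and 14760 CPM to 6834, 7692 and 7788 CPM. Together the fast muscle list took 109900 to 121300 CPM of the younger libraries and 68480 to 81400 CPM of the older ones, so the groups did not overlap. Of 30 slow and cardiac muscle genes 12 fell and 3 rose, with a median of -0.40. The mean of that list stood at -0.54 in replicate 1 and at -0.23 and -0.21 in its mates, and without replicate 1 the list held 11 lower genes, 1 higher gene and a median of -0.30.

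In the eye, cone genes fell while lens genes moved the other way. Of 75 tested phototransduction genes 44 fell and 4 rose, with a median of -0.61. opn1lw2, one of the red cone opsins, was at 182, 158 and 151 CPM at 7 dpf and at 19.4, 18.2 and 19.5 CPM at 10 dpf, a change of -3.10 (SE 0.20, adjusted p = 2.05e-06). The green cone opsin opn1mw1 changed by -1.59, the cone transducin subunits GNGT2 and gnb3b by -1.52 and -1.14, and all 3 genes had replicate 1 as the highest of the 10 dpf libraries. The 4 genes that rose, which lie outside the naming rule, were pde6ha, a subunit of the cone phosphodiesterase, with 0.74, UNC119B with 0.33, rbp4l with 0.45 and rbp3, the retinoid-binding protein between photoreceptors and pigment epithelium, with 0.33. The call of rbp3 was lost without replicate 1 (0.25, adjusted p = 0.171). Of 60 lens genes 24 rose and 6 fell, with a median of 0.24. The crystallin crygm7 rose from 2.65, 3.69 and 2.76 CPM to 10.5, 9.93 and 11.3 CPM, a change of 1.79 (SE 0.19, adjusted p = 2.84e-05), and LIM2, a membrane protein of lens fibres, from 25.9, 26.3 and 24.9 to 42.7, 39.7 and 42.2 CPM. A gene for MIP, the lens water channel, was among the 6 that fell, with -0.43, and lies outside the naming rule. Without replicate 1 the lens list held 20 higher and 6 lower genes, and leaving out 7 dpf replicate 1 or 2 or 10 dpf replicate 2 left 1, 2 and 1 lower genes.

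Ribosome genes rose together. Of 78 tested ribosomal protein genes 73 rose and 0 fell, with a median of 0.45, and of 89 ribosome biogenesis genes 43 rose and 1 fell, with a median of 0.29. RPS26 went from 530, 588 and 506 CPM at 7 dpf to 763, 816 and 870.0 CPM at 10 dpf, a change of 0.59 (SE 0.08, adjusted p = 0.000251). DDX21, a nucleolar RNA helicase, rose from 752, 870.3 and 794 CPM to 1514, 1611 and 1751 CPM, a change of 1.01 (SE 0.08, adjusted p = 2.64e-06). GTPBP4, a GTPase of large subunit assembly, rose by 0.96 and PNO1, of small subunit assembly, by 0.90. The ribosomal proteins together took 88430 to 100100 CPM at 7 dpf and 112300 to 138300 CPM at 10 dpf. Replicate 1 was the lowest of the older libraries in that sum, and without it 75 of the 78 rose. The 43 rises of the biogenesis list were 28 without 10 dpf replicate 2. Proteasome subunits rose in 19 of 35 genes, with 0 lower and a median of 0.28, among them PSMB7 with 0.85 and PSMD3 with 0.97.

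Immune lists rose in part. Of 28 tested lymphoid and adaptive immune genes 2 rose and 2 fell, with a median of 0.04. These shares of 7.14% each were under the 10.8% and 12.4% of all tested genes, and RAG1 was among the falls, with -0.73. Of 54 tested inflammation and acute phase genes 17 rose and 0 fell, with a median of 0.41. SOCS3, an inhibitor of cytokine signalling that lies outside the naming rule, was at 193, 183 and 127 CPM at 7 dpf and at 314, 409 and 365 CPM at 10 dpf, a change of 1.11 (adjusted p = 0.000981). The NF-kappa-B inhibitor nfkbiaa rose by 0.61, and the immediate early genes ier2a and ier2b by 0.79 and 0.94. Macrophage and neutrophil genes rose in 12 of 48, with 0 lower, and antigen presentation genes in 10 of 32, with 1 lower. The 12 include genes of the metalloproteinase inhibitor TIMP4, with 1.76 and 1.24, which need not stand for these cells. The macrophage marker marco, outside the naming rule, was at 10.0, 9.54 and 8.49 CPM at 7 dpf. At 10 dpf it was at 8.72, 9.85 and 12.4 CPM, so the ages overlapped. MPEG1, the macrophage perforin, was at 14.8, 21.2 and 16.7 CPM at 7 dpf and at 29.4, 53.4 and 42.8 CPM at 10 dpf, a change of 1.26 (SE 0.23, adjusted p = 0.00278), with replicate 1 the lowest of the older libraries. Without it 17 macrophage and neutrophil genes and 13 antigen presentation genes rose. The rises of the macrophage and neutrophil list were fewer without other libraries, with 6 and 5 without 7 dpf replicates 1 and 3 and 7 without either 10 dpf replicate 2 or 3, while the antigen presentation list held 8 to 10. Of 39 interferon response genes 2 rose (5.13%) and 1 fell (2.56%), under the 10.8% and 12.4% of all tested genes. The one that fell, isg15, a ubiquitin-like interferon-induced protein, was at 7.79, 5.03 and 15.5 CPM and at 1.17, 0.832 and 1.74 CPM, and its call was lost without 10 dpf replicate 2 (adjusted p = 0.0583). Replicate 3 at 7 dpf, its highest library, lay more than 2-fold above both mates in 9 of the 39 genes (23.1%). Over all tested genes that share was 0.442%.

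Most genes of energy supply were lower, and the lists of several specialised cells held more falls than rises. Nuclear genes of oxidative phosphorylation fell in 59 of 87 with 0 higher and a median of -0.37, and genes of the mitochondrial genome in 10 of 13 with 0 higher and a median of -0.42. ATP5F1B, a catalytic subunit of ATP synthase, went from 1240, 1252 and 1234 CPM to 816, 832 and 959 CPM, a change of -0.52 (SE 0.07, adjusted p = 0.000249). Pigment cell genes fell in 20 of 44 and erythroid genes in 15 of 26, both with 0 higher. gch2, the GTP cyclohydrolase that starts pteridine pigment synthesis, fell from 49.4, 57.9 and 56.9 CPM to 19.3, 16.1 and 17.5 CPM, a change of -1.63 (SE 0.10, adjusted p = 5.04e-07). Ionocyte genes fell in 18 of 44 and rose in 1, and the calcium channel TRPV6 changed by -1.93. Of 64 neuron and synapse genes 18 fell and 4 rose, with a median of -0.10 (12 to 22 fell and 2 to 9 rose without 1 library). The falls included tubb5 with -2.26 and gap43, the growth cone protein, with -0.87. Other neuron markers, outside the naming rule, changed less. ELAVL3 had means of 256 and 255 CPM at 7 and 10 dpf, and the genes named SNAP25 had 397 and 457 CPM, and 152 and 140 CPM. The myelin and glia list held 13 lower genes of 31 (8 without 7 dpf replicate 1) and 2 higher, and the list of neurogenesis and retinal progenitors 15 lower of 43 and 1 higher. The latter held 21 lower and 0 higher without 10 dpf replicate 1, and 10 lower without 10 dpf replicate 2. Relative to 7 dpf its mean stood at -0.13 in 10 dpf replicate 1 and at -0.476 and -0.375 in the mates.

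Large or tight rises of single genes were spread over several functions. SLC14A2, which by its symbol encodes a urea transporter, was at 2.37, 4.11 and 2.76 CPM at 7 dpf and at 29.2, 20.01 and 21.2 CPM at 10 dpf, a change of 2.90 (SE 0.25, adjusted p = 1.61e-05). TIMP4, an inhibitor of matrix metalloproteinases (the more abundant of the genes with this symbol), rose from 31.4, 42.3 and 37.4 CPM to 121, 128 and 127 CPM, a change of 1.76 (SE 0.11, adjusted p = 5.93e-07). PLTP, the phospholipid transfer protein, rose by 1.64 and EFEMP2, a protein of elastic fibres, by 1.37. gh1, the growth hormone of the pituitary, was at 29.3, 28.7 and 29.5 CPM at 7 dpf and at 63.9, 57.9 and 62.6 CPM at 10 dpf, a change of 1.07 (SE 0.07, adjusted p = 3.96e-07). In these 5 genes the ages did not overlap and replicate 1 lay with or near its mates. In clca1, a secreted regulator of chloride channels, the ages did not overlap either, but replicate 1 lay apart from its mates. The gene was at 4.04, 2.84 and 1.23 CPM at 7 dpf and at 5.20, 27.0 and 24.7 CPM at 10 dpf. Its change was 2.72 (adjusted p = 0.0123) with replicate 1 and 3.13 (adjusted p = 0.000242) without.

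**Figure D2:**
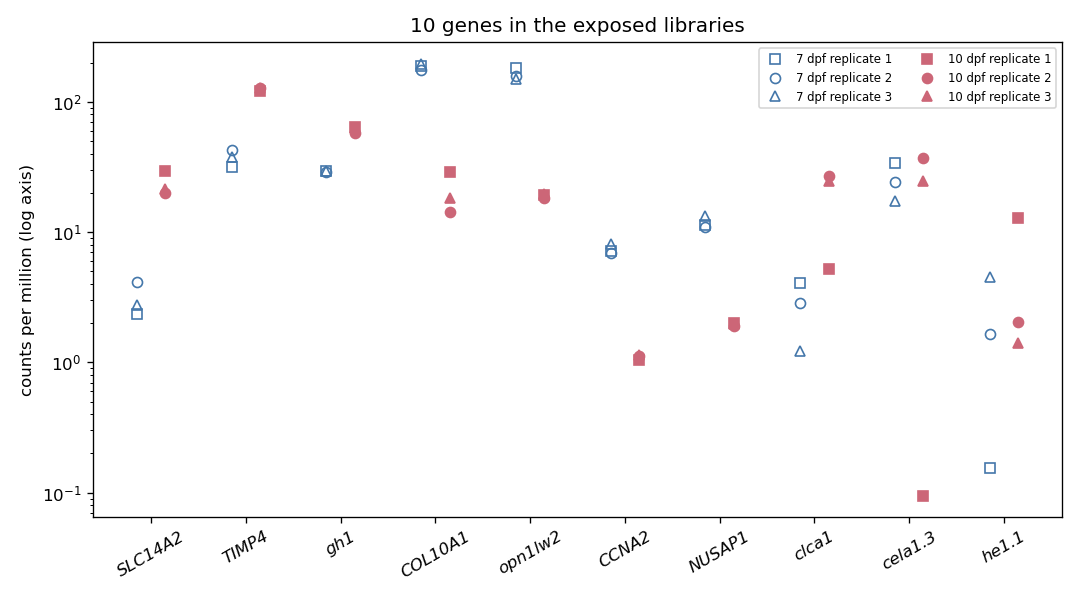
CPM of 10 genes in the 6 exposed libraries on a log axis, with open symbols for 7 dpf, filled symbols for 10 dpf and 1 shape per replicate. In the first 7 genes and in clca1 the ages do not overlap. In clca1, cela1.3 and he1.1 replicate 1 at 10 dpf lies apart from its mates.

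The digestive organs were where the age change depended most on replicate 1. With all 6 libraries 0 of 34 tested exocrine pancreas genes rose and 1 fell, with a median of -0.20. Without replicate 1, 9 rose and 3 fell, with a median of 0.27. For liver secreted proteins the counts were 1 higher and 5 lower of 61 with it, and 3 higher and 16 lower without it, with medians of -0.69 and -0.23. For intestine genes they were 1 higher and 11 lower of 52, and 5 higher and 21 lower, with medians of -0.45 and -0.23. In all, the 147 tested genes of these lists gave 2 rises and 17 falls with replicate 1, and 17 rises and 40 falls without it. Over all tested genes 10.8% rose and 12.4% fell with it, and 9.29% rose and 11.8% fell without it. Replicate 1 was more than 2-fold below both mates in 30 of the 34 pancreas genes, 54 of the 61 liver genes and 32 of the 52 intestine genes, against 1089 of all 23075 genes (4.72%).

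The trypsin gene prss1 shows the pattern in an abundant secreted enzyme (prss1, ela2, ctrb.2, tfa, apoa1b and FABP1 are list members outside the naming rule). It was at 4536, 5717 and 4092 CPM at 7 dpf and at 748, 5952 and 7239 CPM at 10 dpf. The 34 pancreas genes together took 27550 to 38180 CPM at 7 dpf, 36990 and 43840 CPM in replicates 2 and 3 at 10 dpf, and 4850 CPM in replicate 1. CELA1, an elastase, was at 8.39, 8.34 and 6.70 CPM and at 2.06, 24.9 and 30.5 CPM, so that its change was 1.29 (adjusted p = 0.217) with replicate 1 and 1.79 (adjusted p = 5.66e-06) without. The carboxypeptidase CPA1, outside the naming rule, was at 156, 178 and 121 CPM and at 33.98, 316 and 349 CPM, with 0.62 (adjusted p = 0.534) and 1.12 (adjusted p = 8.89e-05). Within the list the enzymes did not move alike even without replicate 1: ela2, an elastase, and ctrb.2, a chymotrypsinogen, were lower, with -0.66 (adjusted p = 0.00506) and -0.98 (adjusted p = 0.00541). The lowest value of all was that of cela1.3, another elastase, with 3 reads in replicate 1 (0.0951 CPM) against 17.3 to 37.3 CPM in the other 5 libraries.

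Among liver and intestine genes that passed, more were lower than higher, with and without replicate 1. With all libraries, replicate 1 included, 8.2% of liver genes were lower, under the 12.4% of all tested genes, and 21.2% of intestine genes. Higher were 1.64% and 1.92%, against 10.8% of all tested genes. Without any 1 of the other exposed libraries the liver list held 3 to 10 lower genes, the highest without 10 dpf replicate 3, and without 7 dpf replicate 2 the intestine list held 7. The transferrin gene tfa was at 803, 937 and 872 CPM at 7 dpf and at 50.6, 255 and 362 CPM at 10 dpf, with -1.97 (adjusted p = 0.0344) with replicate 1 and -1.51 (adjusted p = 9.26e-05) without. The apolipoprotein gene apoa1b was at 3341, 3729 and 3220 CPM and at 252, 1116 and 1981 CPM, with -1.62 (adjusted p = 0.0689) and -1.16 (adjusted p = 0.000769). FABP1, a fatty acid binding protein, was at 282, 281 and 265 CPM and at 25.5, 115 and 160 CPM, with -1.46 (adjusted p = 0.0684) and -1.02 (adjusted p = 6.58e-05). In each of these genes every 10 dpf library lay below every 7 dpf library, and replicate 1 lay lowest. apom, an apolipoprotein, and g6pc1a.1, a glucose-6-phosphatase of gluconeogenesis, were low in replicate 1 alone, at 5.80 against 55.9 to 79.2 CPM and at 1.97 against 18.5 to 30.9 CPM. The complement gene c3a.2 fell with and without replicate 1 (-2.09, adjusted p = 0.00325, and -1.76, adjusted p = 0.000181), and lay at 1.81 CPM in it against 5.15 and 6.57 CPM in its mates. By contrast replicate 1 lay near its mates in 2 other genes that fell, the intestinal peptidase ANPEP, at 3.42, 2.92 and 3.85 CPM at 10 dpf, and CUBN, the uptake receptor cubilin, at 22.0, 16.7 and 21.5 CPM. igfbp1b, a binding protein of insulin-like growth factors, was at 26.6, 40.7 and 35.3 CPM and at 34.1, 92.6 and 108 CPM, and passed the threshold without replicate 1, with 1.54 (adjusted p = 0.00392), but not with it (1.19, adjusted p = 0.0701), while DESeq2 and voom with sample weights called it with all libraries.

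Xenobiotic and pituitary lists carried the same library in part. Replicate 1 lay more than 2-fold below both mates in 14 of 49 xenobiotic genes and in 10 of 49 pituitary and stress hormone genes, but in 0 of 60 lens genes, 0 of 78 ribosomal protein genes and 1 of 80 mitosis genes. Genes in which it lay above the other 5 libraries were few. The hatching enzyme gene he1.1 was at 0.154, 1.66 and 4.55 CPM at 7 dpf and at 12.9, 2.05 and 1.399 CPM at 10 dpf, and its change went from 1.53 to -0.09 without replicate 1, with neither value past the threshold. tgm1l3, a transglutaminase by its symbol, was at 0.693, 0.582 and 1.12 CPM and at 19.97, 5.73 and 0.739 CPM. Its call of 3.56 (adjusted p = 0.0391) was lost without replicate 1 (2.196, adjusted p = 0.106), and so was that of the keratin krt93 (3.17 and 2.36, adjusted p = 0.0406 and 0.107). Neither loss was particular to replicate 1: tgm1l3 also lost its call without each 7 dpf replicate and without 10 dpf replicate 2, and krt93 without 7 dpf replicates 2 and 3 and 10 dpf replicate 2.

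Most of the 5343 calls were kept without replicate 1, with 4293 (80.3%) also called and 0 changing sign. Leaving out another exposed library kept 67.7 to 83.2% of them, also with 0 sign changes. The 5343 were chosen in a fit that holds replicate 1. Genes in which it departs from its mates could therefore be missing from them. In 16 calls (0.299%) the log2 change moved by more than 0.5 without replicate 1. The 1050 lost calls had a median adjusted p of 0.0812 without it, and 758 of them stayed under 0.1. Without it 658 genes were newly called. Of the 645 tested in both fits, 180 (27.9%) had replicate 1 more than 2-fold below both mates. That share was 2.17% of the calls kept, 0.286% of those lost and 4.72% of all tested genes. Gained and lost calls are defined by the removal of replicate 1, so a contrast of these shares follows in part from the choice. Leaving out any other exposed library except 10 dpf replicate 3 left fewer genes, 3722 to 4202. Without 10 dpf replicate 3 there were 5233. The fewest calls remained without 10 dpf replicate 2 (3722 genes, of which 3618 were among the 5343). The median size of the 5343 calls was 0.549 with all libraries, 0.538 without 10 dpf replicate 2 and 0.539 without replicate 1. A count of calls also depends on the spread among the libraries left, so it does not rank the libraries by their part in the age change. With limma's voom and sample weights, replicate 1 had a weight of 0.349 against 0.711 to 1.96 in the other exposed libraries.

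**Figure D3:**
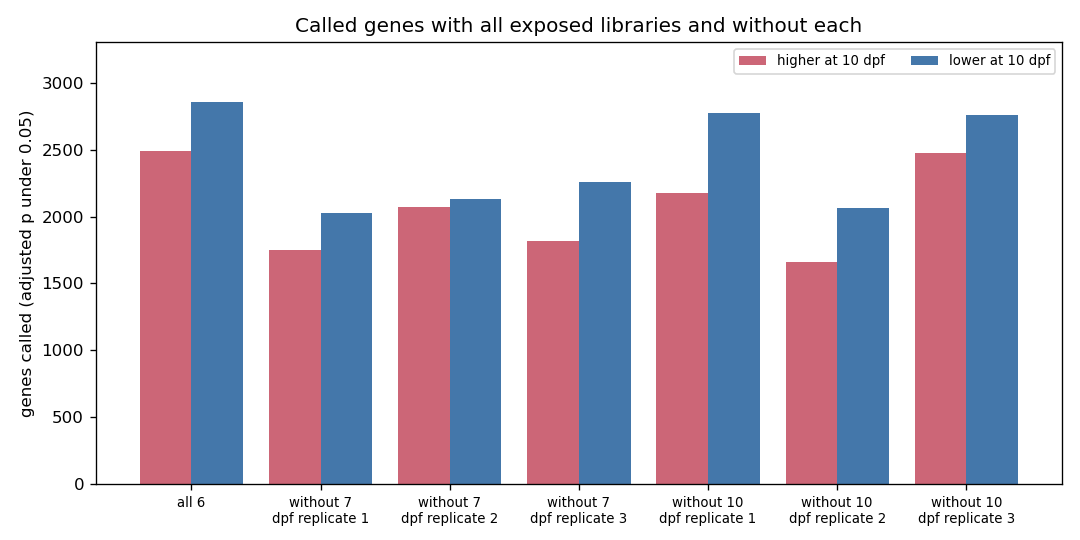
Bars give the number of genes higher and lower at 10 dpf past the threshold, with all 6 exposed libraries and without each of them in turn. The total is 4951 genes without 10 dpf replicate 1 and 3722 without 10 dpf replicate 2.

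**Figure D4:**
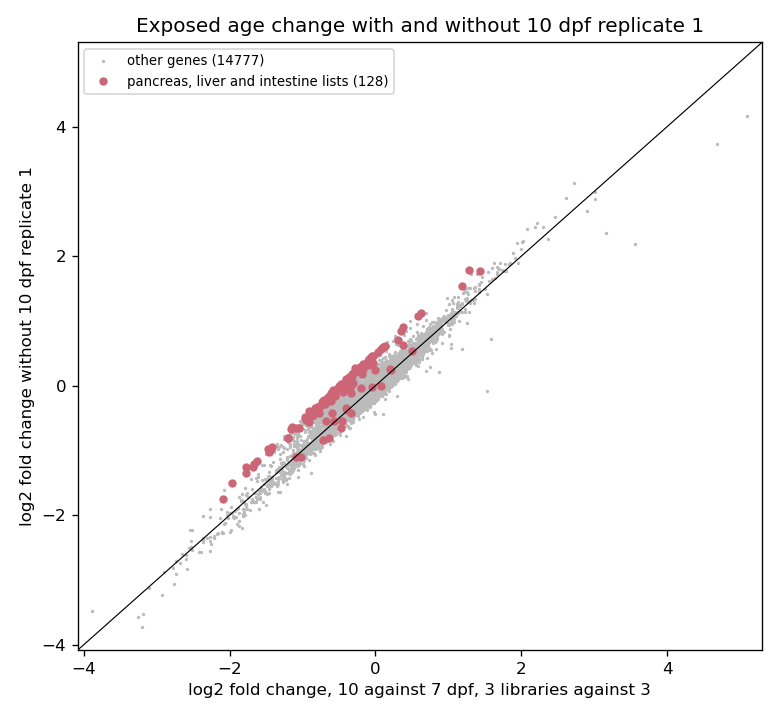
Log2 fold change of 10 against 7 dpf with all 6 exposed libraries (x axis) and without 10 dpf replicate 1 (y axis), for genes whose mean reaches 5 CPM at either age, 128 of them from the pancreas, liver and intestine lists and 14777 others; the line marks equal values. Of the 128 genes 120 lie above the line, so their change is higher without replicate 1, which is low in most genes of these lists. The matching count for the 14777 others was not taken. Over all tested genes the median change was 0.0113 with it and -0.00267 without it.

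Set beside the age change of control larvae, which shares no library with it, that of exposed larvae had the same direction for most genes and was smaller over the genes chosen in controls. In controls 6770 genes (29.3%) were called, 3300 higher (14.3%) and 3470 lower (15%). Of the exposed calls 3622, or 67.8%, were called in controls in the same direction, which is 53.5% of the control calls, and 17 were called in opposite directions. Across all tested genes the 2 changes had a Pearson r of 0.652, where genes are not independent replicates and the 12 libraries share 1 estimate of the spread. The control calls had a median size of 0.57 in controls and of 0.39 in exposed larvae (0.41 without replicate 1), while the exposed calls had 0.55 in exposed larvae and 0.47 in controls. Each set of calls is larger in the larvae it was chosen in.

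The difference between the 2 age changes was called in 62 genes (0.269%), 24 with the higher change in exposed larvae (0.104%) and 38 with the lower (0.165%). In 5 of the 80 mitosis genes the fall was steeper in exposed larvae, and the list median was -0.73 in controls against -1.64. mki67 went from a mean of 46.1 ± 2.35 CPM to 11.5 ± 0.504 CPM in exposed larvae (SD, n = 3) and changed by -1.99, against -0.79 in controls (difference -1.20, adjusted p = 0.0176). The spindle motor gene kif11, outside the naming rule, changed by -2.55 and -0.87 (difference -1.69, adjusted p = 0.0224). Lysosomal genes held 6 such genes of 58. In that list 28 genes rose with age in controls and 2 fell, against 4 and 7 in exposed larvae. The 7 falls were 2 without 10 dpf replicate 1, 7 dpf replicate 1 or 10 dpf replicate 2, and 1 without 7 dpf replicate 2. FUCA1, the lysosomal fucosidase, was at 87.8, 95.5 and 77.3 CPM at 7 dpf and at 80.6, 81.2 and 74.3 CPM at 10 dpf in exposed larvae, while the control means were 98.8 and 202 CPM (difference -1.18, adjusted p = 0.00297). The photoreceptor list held 4 such genes. The cone arrestin gene ARR3 was at 200.4, 218 and 189 CPM and at 194, 171 and 196 CPM in exposed larvae, and its mean fell from 211 to 97.5 CPM in controls (difference 0.995, adjusted p = 0.0155). The count of 62 depended on single libraries of both groups. It was 41 without exposed 10 dpf replicate 1, and 27 and 30 without replicates 2 and 3 of that group. Without exposed 7 dpf replicates 1, 2 and 3 it was 10, 24 and 14. Among controls it was 12 and 39 without 7 dpf replicates 2 and 3, and 17 and 24 without 10 dpf replicates 1 and 2, while leaving out the other two gave 63 and 47.

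**Figure D5:**
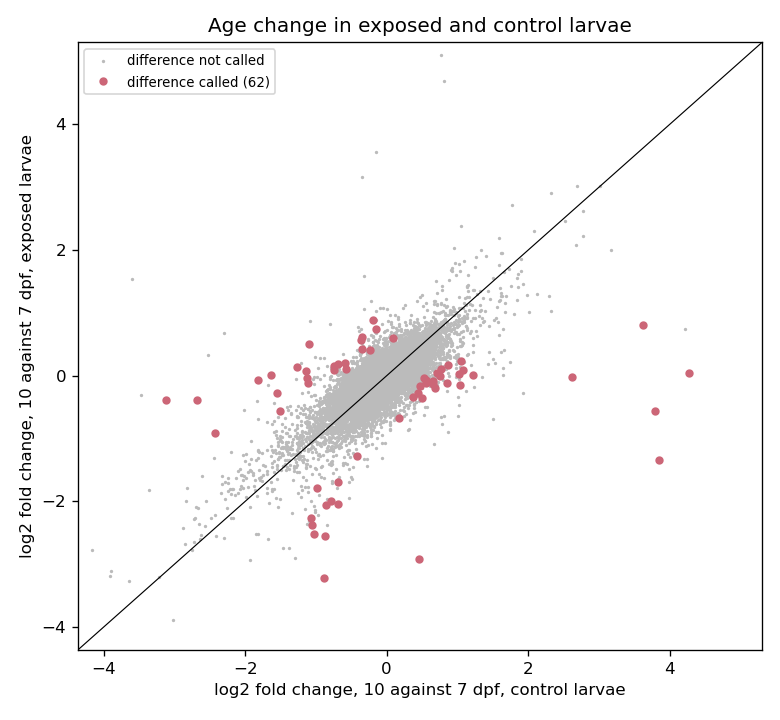
Log2 fold change of 10 against 7 dpf in control larvae (x axis) and in exposed larvae (y axis) for genes whose mean reaches 5 CPM in exposed larvae at either age, with the 62 genes whose difference was called in red at any level; the line marks equal changes. The called genes lie off the line, on either side of it.

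As a summary over all genes, each exposed library was placed on an axis built from control libraries alone, on which the control mean is 0 at 7 dpf and 1 at 10 dpf. The exposed libraries stood at -0.168, -0.0474 and -0.177 at 7 dpf and at 0.395, 0.540 and 0.483 at 10 dpf, a difference of 0.604. The groups did not overlap, and the exact two-sided permutation test gave p = 0.1, the smallest that 3 against 3 libraries allow. Replicate 1 was the lowest of the older libraries, and the difference without it was 0.642. Control libraries placed on axes built without them stood at 0.0315 to 0.261 at 7 dpf and at 0.868 to 0.977 at 10 dpf. Whether the exposed and control differences on the axis differ was not tested.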

How the data were processed

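The deposited values are raw read counts per gene, made with STAR on genome build GRCz11 per the submitters' processing notes. No source used here names the STAR version or annotation. Total RNA (TRIzol, no DNase I) went into stranded mRNA libraries read from both ends, per the labels' protocols. Reverse-strand counts were analysed; the forward strand held 2.24 to 2.55% of reads on genes. Lines that name no gene (unmapped 4.56 to 5.43%, several places 14.4 to 14.8%, no gene 11.3 to 14.5%, ambiguous 0.586 to 0.634% of reads) were left out. Symbols come from a table of gene IDs that names 28988 of 32057 genes, and 1541 symbols are shared by 3181 tested genes, whose reads the counting could split.

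Genes passing edgeR's filterByExpr (minimum count 10, minimum total 15) were scaled with TMM and fitted with the robust quasi-likelihood model, 1 mean per group over all 12 libraries with 8 residual degrees of freedom. Two-sided p-values were adjusted by Benjamini-Hochberg across the 23075 genes, and 0.05 was the threshold. SE is the log2 change divided by the root of F. Log2 CPM used a prior count of 2. Leaving out a library repeated filter and fit.

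In all, 38 lists with 1940 entries were used, of which 1468 matched exactly, 324 by a stem and 148 not. The comparison and the lists were chosen with earlier results of these data known, and 1 wrong stem match was corrected after values were seen. Except where replicate 1 or the difference chose them, named genes have at least 5 CPM in the higher group, libraries of the ages that do not overlap, and a symbol that is no clone name. They are the 12 largest rises and falls, the 5 smallest p in each direction, up to 4 called members of each list, 8 genes each way in which 10 dpf replicate 1 lies farthest from the other 5 exposed libraries, 6 called only with and 6 only without it, and 5 each way for the difference. Depth limits low genes, and p-values measure the spread between libraries. Alternatives were RLE and upper quartile scaling, other filters, a replicate block, unstranded counts, glmTreat at a fold of 1.5, DESeq2, voom with sample weights, thinning to 19379018 reads, and fits of exposed or control libraries alone. Methods were also tried on simulated counts with far fewer changed genes than here and no library set apart. That simulation cannot speak to replicate 1. In it edgeR found 47.9% of 1.5-fold, 87.5% of 2-fold and 98.2% of 4-fold changes. False calls among 23075 genes were 9 with edgeR, 8 with voom and sample weights, and 20 with DESeq2. The tools were edgeR 4.0.16, DESeq2 1.42.0 and limma 3.58.1 under R 4.3.3, with figures by matplotlib 3.10.9.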

Additional observations from a re-analysis of the deposited data

Results flagged for a closer look

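In 15 of the named genes the age change differed between exposed and control larvae by the test of the difference itself, exposed minus control on the log2 scale. The cell division genes TOP2A, TPX2 and mki67 differed by -1.50, -1.19 and -1.20, and the clock gene nr1d4a by -0.81. Lower changes in exposed larvae were also those of the lysosomal fucosidase FUCA1 (-1.18), the lysosomal proteases LGMN (-0.84) and TPP1 (-0.74), and KLHL24, an adaptor of ubiquitin ligation (-0.89). Only LGMN among these 4 changed in exposed larvae themselves, from 402, 388 and 365 CPM to 237, 228 and 259 CPM, a fall of 0.67 on the log2 scale that did not pass in controls.

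Higher changes in exposed larvae were those of ponzr4 (2.72), rtn4rl2a (1.39), CYP26B1, the retinoic acid hydroxylase (0.84), the cone arrestin gene ARR3 (0.995) and FABP6, the ileal bile acid binding protein (1.21). These 5 fell with age in controls and did not pass the threshold in exposed larvae: rtn4rl2a, a Nogo receptor relative, was at 41.9, 36.9 and 36.4 CPM at 7 dpf and at 42.1, 45.9 and 38.2 CPM at 10 dpf, against control means of 44.3 and 18.5 CPM. The transcription factor gene JUNB (1.09) and the keratin krt94 (0.51) rose in exposed larvae and did not pass in controls. Mean JUNB was at 44.8 CPM at 7 dpf and 83.2 CPM at 10 dpf in exposed larvae, against 86.9 and 75.6 CPM in controls.

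Without 10 dpf replicate 1 the difference stayed past the threshold in 13 of the 15, with adjusted p of 0.00422 to 0.0415, and was lost in JUNB (0.0705) and krt94 (0.0814). The 15 were called in a fit that holds replicate 1. Leaving out each of the 12 libraries in turn, ponzr4, rtn4rl2a, CYP26B1, FUCA1, KLHL24 and LGMN kept the call each time, while JUNB lost it 11 times, TOP2A 10 times, nr1d4a 9 times and krt94 12 times. TPX2 lost it 5 times, mki67, FABP6 and TPP1 3 times each, and ARR3 once, without exposed 7 dpf replicate 1. With the replicate number as a block the call was lost in TOP2A (adjusted p = 0.11), nr1d4a (0.0566), krt94 (0.0984) and TPP1 (0.0519).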

How the results depend on the processing

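The count of 5343 genes in exposed larvae stayed within 1.5 times under every alternative except the test against a fold of 1.5, which gave 684 genes in exposed and 993 in control larvae. Leaving out 1 exposed library gave 3722 to 5233 genes, and 1 control library 5044 to 6268 genes for controls. The difference of 62 genes moved most: glmTreat gave 2, DESeq2 275, voom with sample weights 152, and leaving out 1 library 10 to 63. Upper quartile scaling turned the balance of exposed calls to 2889 higher and 2613 lower, and the filter of 1 CPM to 2721 and 2658. The age position difference of 0.604 was 0.735 with 500 genes and 0.528 to 0.645 without 1 library. Replicate numbers did not pair the exposed libraries: deviations of same-numbered 7 and 10 dpf libraries correlated at 0.0758, 0.165 and -0.140. With the replicate block, exposed larvae gave 4847 genes, controls 6264 and the difference 22. Among the 200 named genes, the direction turned without 1 library in 4 not called with all: he1.1 ranged from -0.088 to 2.53, cela1.3 from -1.02 to 0.28, itih3b.2 from -0.97 to 0.095 and cbln8 from -0.19 to 0.93, the last past the threshold without 10 dpf replicate 1. The cause of these moves was not tested. Of 173 called named genes 81 were called under every alternative, and 13 were lost without 10 dpf replicate 1, against 7 to 17 without any other exposed library. Among all genes 5 not called with all libraries were called in the opposite direction without it. Of 646 list counts 558 stayed within 1.5 times. Depth limits genes of a few reads, and with 3 libraries per group the exact test cannot go below 0.1.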

Other observations

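Clock genes moved in both directions in exposed larvae, with 16 of 42 tested higher (38.1%) and 10 lower (23.8%). Over all tested genes these shares were 10.8% and 12.4%. Without 1 exposed library 11 to 15 clock genes were higher and 8 to 11 lower. nr1d4a, a nuclear receptor of the Rev-erb family, was at 42.0, 40.0 and 43.3 CPM at 7 dpf and at 12.6, 11.2 and 12.4 CPM at 10 dpf, a change of -1.79, and rorca, of the opposing ROR family, rose from 9.98, 10.9 and 9.25 CPM to 20.7, 22.8 and 21.4 CPM, a change of 1.099. dbpa and PER1 fell by 0.65 and 0.61. The time of day at sampling is not given in the sources used here. Of 49 pituitary and stress hormone genes 9 rose (18.4%) and 2 fell (4.08%), against 10.8% and 12.4% of all tested genes. Without 1 exposed library 6 to 9 rose and 2 to 5 fell. Among them THRB, a thyroid hormone receptor, rose by 0.53 while cyp11c1, the last enzyme of cortisol synthesis, fell by 0.99.

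DNA damage response genes had a median change of 0.02 in exposed larvae, with 4 of 39 higher and 7 lower. These shares of 10.3% and 17.9% stood beside 10.8% and 12.4% of all tested genes. The lower genes were 5 or 6 without any 1 exposed library, and 5 without 10 dpf replicate 1. cdkn1a, the p53 target that blocks the cell cycle, was at 102, 95.0 and 80.3 CPM at 7 dpf and at 29.1, 33.1 and 37.8 CPM at 10 dpf. It fell by 1.47 (adjusted p = 8.68e-06) in exposed larvae and by 1.14 in controls, where the means were 73.3 and 33.1 CPM, and the difference did not pass (adjusted p = 0.534). bbc3, the p53 target PUMA, rose by 0.57 in exposed larvae. Antioxidant genes fell in 14 of 46 with 1 higher, and in 9 without 10 dpf replicate 1 or without 7 dpf replicate 2. The peroxiredoxin PRDX1 went from 351, 409 and 356 CPM to 129, 196 and 223 CPM, lowest in replicate 1, with -1.02 with it and -0.84 without.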
